A study of Mus musculus with 28 samples.

Results

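The genes described here are 10 genes of glucose uptake and glycolysis, 10 of the 52636 genes in the count table. They were chosen as named steps of the pathway, at a time when earlier results of these data were known: the glucose transporters Slc2a1 and Slc2a3, the hexokinases Hk1 and Hk2, the phosphofructokinase Pfkp, and the enzymes of the later steps Aldoa, Pgk1, Eno1, Pkm and Ldha. The RNAseq libraries of E13, E14 and E16 were made from single molar tooth germs of wild type C57BL/6JOlaHsd mouse embryos, with little of the surrounding tissue left around the germ. There were 7 teeth of E13 (the bud stage, labelled E13.5) from 7 embryos, 7 teeth of E14 (the cap stage, E14.5) from 6 embryos, and 7 teeth of E16 (the bell stage, E16.5) from 5 embryos. A further 6 teeth labelled E15 are found only in a second table, made with a different counting program. The groups of E13, E14 and E16 are untreated stages of the same strain, so that their comparisons follow the same organ through time. The paper that gives the strain does not describe the E15 teeth. A difference between E15 and another stage therefore cannot be told apart from a difference between these sets of samples. Pairs of teeth came from the same animal once at E14 and 2 times at E16.

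Glycolysis converts glucose to pyruvate in the cytoplasm. Glucose enters cells through facilitative transporters, is trapped as glucose 6-phosphate by hexokinase, passes the committed step at phosphofructokinase, and is split and oxidized to pyruvate, which lactate dehydrogenase can reduce to lactate. In embryonic tissues a large part of the pyruvate ends as lactate also in the presence of oxygen, and many genes of the pathway are known targets of the hypoxia-inducible factors (HIF) and of Myc. A tooth germ consists of an epithelium, which grows and folds from the bud to the bell stage and a mesenchyme derived from the neural crest.

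The libraries of E13, E14 and E16 held between 17814073 and 27115729 reads counted on genes, with a median of 23827447. The left tooth of embryo 3 at E16 stood apart from the others of its stage in several measures. It had the lowest total, and its median correlation of log2 CPM with the other teeth of its stage was 0.949, against 0.968 to 0.985 in the other 20 libraries. The summed level of the 10 genes in it was 19987 normalized counts, against 41364 to 51989 in the other 6 E16 teeth, and its summed level of 10 mesenchyme markers was 52738, against 106109 to 120047. Most tests of the 10 genes and of the ratios between stages are given with and without this tooth. For other genes, some of the calls that change without it are given, by name or only as counts, and not for every list. A level is given throughout as the count divided by the DESeq2 size factor of the library (a normalized count), and levels of different genes are compared only after division by the exon length in kilobases (kb). A gene is called changed at an adjusted p (Benjamini-Hochberg over all genes tested) below 0.05 in the quasi-likelihood test of edgeR, and all 10 genes were among the 19101 tested. Each tooth was a unit of this test, unless the teeth of an embryo are said to be summed. Some teeth at E14 and E16 came from the same embryo, so that its p-values may be too small. In these whole teeth, fewer cells of a type and less RNA per cell cannot be told apart.

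For Pfkp, Hk2, Slc2a1 and Ldha, which were called higher between stages, and for Eno1, which did not pass the test in any comparison, the sequence around the transcription start is shown, to place the values beside the letters that HIF and Myc proteins are known to recognize. The windows run from 250 bases before to 50 after a RefSeq transcript start on GRCm38.p6, written 5′ to 3′ on the strand of the gene. Capitals mark the HIF core letters ACGTG and GCGTG on either strand (read as CACGT and CACGC on the opposite strand), of which ACGTG also lies inside the E-box CACGTG, counted then once on each strand. At least 1 match was found in 43.8% of the 32851 windows of all genes and in 6 of the 9 members with a window, taking the window nearest to the annotated start of the gene. Pfkp (chr13:6648722-6649021, minus strand) holds 4 matches, Hk2 (chr6:82774405-82774704, minus strand) 2, Slc2a1 (chr4:119108495-119108794, plus strand) 2, Ldha (chr7:46845554-46845853, plus strand) 7, and Eno1 (chr4:150236458-150236757, plus strand) 2. These windows were chosen among those with a match. The nearest windows of Aldoa, Hk1 and Pkm hold none, while windows at other RefSeq starts of these genes hold 1 and 1 (Aldoa), 5 (Hk1) and 2 (Pkm). A match describes the letters of the window and is not evidence of binding.
Pfkp: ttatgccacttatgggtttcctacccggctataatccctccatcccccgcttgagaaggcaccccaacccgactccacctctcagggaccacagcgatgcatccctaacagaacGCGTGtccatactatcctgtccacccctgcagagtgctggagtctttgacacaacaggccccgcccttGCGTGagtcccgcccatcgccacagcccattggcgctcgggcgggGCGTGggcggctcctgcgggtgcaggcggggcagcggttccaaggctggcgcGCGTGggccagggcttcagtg
Hk2: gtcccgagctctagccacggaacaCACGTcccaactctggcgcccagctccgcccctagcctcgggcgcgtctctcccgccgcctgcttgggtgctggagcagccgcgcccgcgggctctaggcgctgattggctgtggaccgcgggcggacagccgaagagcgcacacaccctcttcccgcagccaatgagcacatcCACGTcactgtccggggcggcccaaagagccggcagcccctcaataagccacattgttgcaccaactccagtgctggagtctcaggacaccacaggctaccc
Slc2a1: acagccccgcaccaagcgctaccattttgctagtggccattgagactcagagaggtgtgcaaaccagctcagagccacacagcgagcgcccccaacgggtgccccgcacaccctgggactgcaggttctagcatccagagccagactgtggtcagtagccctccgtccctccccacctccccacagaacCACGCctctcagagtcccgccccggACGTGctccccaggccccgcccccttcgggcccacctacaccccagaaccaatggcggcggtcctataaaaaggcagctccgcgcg
Ldha: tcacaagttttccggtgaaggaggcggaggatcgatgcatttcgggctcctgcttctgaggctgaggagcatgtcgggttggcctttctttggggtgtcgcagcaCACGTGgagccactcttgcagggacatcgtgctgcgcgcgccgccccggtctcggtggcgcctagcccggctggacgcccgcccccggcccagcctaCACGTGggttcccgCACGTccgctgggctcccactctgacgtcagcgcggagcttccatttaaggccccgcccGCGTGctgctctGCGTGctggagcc
Eno1: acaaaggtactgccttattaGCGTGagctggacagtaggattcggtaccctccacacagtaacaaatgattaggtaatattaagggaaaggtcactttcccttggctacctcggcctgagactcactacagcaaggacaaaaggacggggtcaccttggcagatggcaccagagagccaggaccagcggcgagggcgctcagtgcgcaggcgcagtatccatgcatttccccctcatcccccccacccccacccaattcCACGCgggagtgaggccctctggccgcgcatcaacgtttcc

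The first step, glucose uptake, was represented by a pair of transporters that moved in opposite directions. Slc2a1 (ENSMUSG00000028645) encodes GLUT1, the common basal transporter of embryonic cells. Its lowest, median and highest levels were 1955, 2286 and 2463 normalized counts at E13, 2303, 2804 and 3227 at E14, and 1663, 3765 and 4700 at E16. At E14 6 of the 7 teeth were above every E13 tooth, and at E16 6 of the 7 were above every E14 tooth, the exception being the left tooth of embryo 3, which was below all teeth of the earlier stages. The log2 fold change was 0.31 ± 0.14 (SE) from E13 to E14 (adjusted p = 0.12, edgeR), 0.37 ± 0.14 from E14 to E16 (adjusted p = 0.0467) and 0.69 ± 0.14 over the whole interval (adjusted p = 0.000309). Without the left tooth of embryo 3 the same values were 0.31 (adjusted p = 0.00294), 0.51 (adjusted p = 9.42e-06) and 0.82 (adjusted p = 1.52e-09). The call from E14 to E16 also depended on other settings: it was lost with the 2 stages fitted alone (adjusted p = 0.104) and with the teeth of an embryo summed (adjusted p = 0.143).

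Slc2a3 (ENSMUSG00000003153), which encodes GLUT3, a transporter of high affinity known from neurons and early embryos, was the member that fell. Its lowest, median and highest levels were 426, 466 and 552 normalized counts at E13, 305, 367 and 445 at E14, and 226, 271 and 291 at E16. Of the E14 teeth 5 were below every E13 tooth, and all 7 E16 teeth were below every E14 tooth. Slc2a3 fell by 0.35 ± 0.10 (SE, log2 scale) from E13 to E14 (adjusted p = 0.0105, edgeR), by 0.51 ± 0.10 from E14 to E16 (adjusted p = 0.00026) and by 0.86 ± 0.10 from E13 to E16 (adjusted p = 7.39e-08). The left tooth of embryo 3 was the lowest E16 tooth here too, and without it the changes were -0.36 from E13 to E14, -0.46 from E14 to E16 and -0.82 from E13 to E16 (edgeR, adjusted p = 0.00355, 0.000357 and 3.84e-08).

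**Figure D1:**
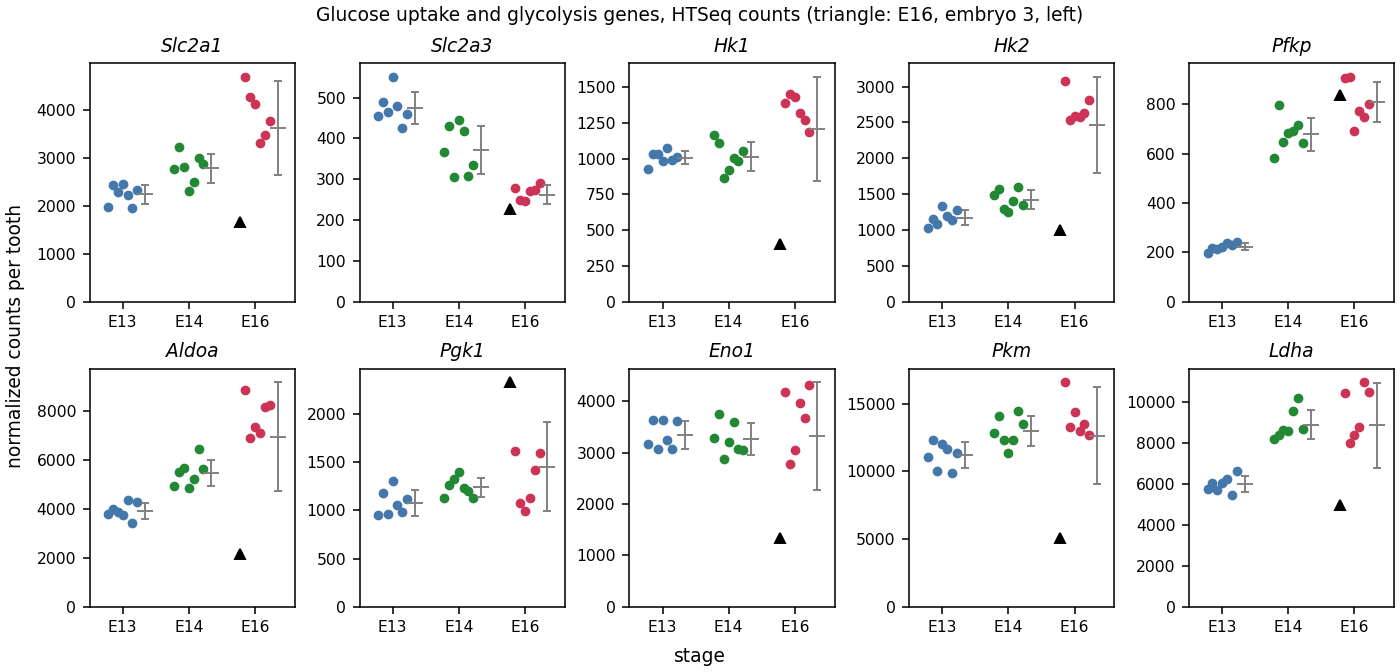
Normalized HTSeq counts (linear axis from 0) of the 10 genes in each tooth at E13, E14 and E16 (7 teeth each), with the mean ± SD to the right of the points; the black triangle is the left tooth of embryo 3 at E16. Pfkp rises from 199 to 243 at E13 to 581 to 797 at E14, Slc2a3 falls at each step, and the triangle lies below the other E16 teeth in 8 panels, with Pfkp and Pgk1 the exceptions.

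Hexokinase phosphorylates glucose and keeps it in the cell. Hk1 is the widely expressed form, and Hk2 is the form known to be regulated by insulin and hypoxia. Hk2 (ENSMUSG00000000628) had lowest, median and highest levels of 1023, 1155 and 1328 normalized counts at E13, 1250.3, 1407 and 1595 at E14, and 996, 2596.5 and 3086 at E16. Apart from the left tooth of embryo 3, the E16 teeth started at 2534 and did not overlap with those of E14 or E13. Hk2 rose by 0.79 ± 0.15 (SE, log2 fold change) from E14 to E16 (adjusted p = 0.000203, edgeR) and by 1.07 ± 0.15 from E13 to E16 (adjusted p = 2.26e-06), while the value of 0.28 ± 0.15 from E13 to E14 did not pass the test (adjusted p = 0.195). Without the left tooth of embryo 3 this first step was called as well, at the same size (0.28 ± 0.07, adjusted p = 0.00192) and the step to E16 was 0.94 (adjusted p = 5.71e-12, edgeR), with the whole interval at 1.22 (adjusted p = 7.42e-15).

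Hk1 (ENSMUSG00000037012) changed less. Its lowest, median and highest levels were 926, 1010.2 and 1075 normalized counts at E13 and 868, 1003 and 1164 at E14. At E16 the left tooth of embryo 3 had 404 and the other 6 between 1189 and 1452, all above the E14 teeth. The log2 fold changes of 0.01 ± 0.17 (SE) from E13 to E14 and 0.25 ± 0.16 from E14 to E16 did not pass the test (adjusted p = 0.979 and 0.284, edgeR). The call at E16 hung on the 1 tooth: without it Hk1 rose by 0.41 ± 0.07 from E14 to E16 (adjusted p = 1.32e-05, edgeR) and by 0.42 ± 0.07 from E13 to E16 (adjusted p = 5.68e-06), where the value with all teeth was 0.26 (adjusted p = 0.227).

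Pfkp had the largest change of the 10 genes from E13 to E14 and from E13 to E16. It encodes the platelet type of phosphofructokinase, the enzyme of the committed step, beside the liver type Pfkl and the muscle type Pfkm. Its lowest, median and highest levels were 199, 222 and 243 normalized counts at E13, 581, 682 and 797 at E14, and 692, 804 and 913 at E16. All E14 teeth were above all E13 teeth, and the E16 teeth overlapped with those of E14 but lay mostly higher, 4 of 7 above every E14 tooth. The rise was 1.60 ± 0.08 (SE, log2 fold change; 3.04-fold) from E13 to E14 (adjusted p = 1.14e-12, edgeR) and 1.85 ± 0.08 from E13 to E16 (adjusted p = 4.64e-15). The second step, 0.25 ± 0.08 from E14 to E16 (adjusted p = 0.0216), was small and missed the threshold with the 2 stages fitted alone (adjusted p = 0.053). The left tooth of embryo 3, with 838 normalized counts, was not low for Pfkp, and without it the 3 values were 1.60, 0.26 and 1.86, all called. The exons of Pfkp (ENSMUSG00000021196) overlap with those of Pitrm1 on the opposite strand over 7.63% of their length, and the strand setting of the counting is not given in the sources used here. Pitrm1 had means of 2756, 3079.6 and 3338 normalized counts at E13, E14 and E16.

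Aldoa (ENSMUSG00000030695) encodes aldolase A, which splits the phosphorylated sugar into 3-carbon units. Its lowest, median and highest levels were 3399, 3881 and 4360.4 normalized counts at E13, 4863, 5508 and 6424 at E14, and 2152, 7328 and 8817 at E16. All E14 teeth were above all E13 teeth, and at E16 all but the left tooth of embryo 3 were above all E14 teeth. The value from E13 to E14 was 0.48 ± 0.18 (SE, log2 fold change, adjusted p = 0.0637, edgeR, or 0.0366 with DESeq2) and that from E14 to E16 0.34 ± 0.18 (adjusted p = 0.164), neither past the threshold, while the sum of both, 0.82 ± 0.18, was (adjusted p = 0.000752). Without the left tooth of embryo 3 both steps were called, at 0.47 ± 0.07 (adjusted p = 2.1e-06) and 0.51 ± 0.07 (adjusted p = 6.05e-07), and the whole interval was 0.99 (adjusted p = 6.22e-13).

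Pgk1 (ENSMUSG00000062070, phosphoglycerate kinase, an ATP-producing step) is the gene most affected by near-identical copies. Of the 84-base windows of its transcripts, the length of the reads, 52.4% are also found in transcripts of other genes, so that the counts depend on how the counting treated reads with several positions. The levels of its teeth (lowest, median and highest) were 949.99, 1055 and 1302 normalized counts at E13, 1127, 1235 and 1397 at E14, and 996, 1423 and 2331 at E16. The highest E16 value belongs to the left tooth of embryo 3, the opposite of its place for most members. The values from E13 to E14 (0.20 ± 0.14, SE, log2 fold change) and from E14 to E16 (0.23 ± 0.14) did not pass the test (adjusted p = 0.33 and 0.229, edgeR). From E13 to E16 Pgk1 rose by 0.43 ± 0.14 (adjusted p = 0.0143), and by 0.28 ± 0.10 without that tooth (adjusted p = 0.0232), where the steps were 0.20 and 0.09 and were not called (adjusted p = 0.134 and 0.559).

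Eno1 and Pkm, the enzymes of the last steps to pyruvate, did not pass the test in any of the comparisons with all teeth. Eno1 (ENSMUSG00000063524, enolase) had medians of 3238, 3209 and 3666 normalized counts at E13, E14 and E16, with lowest and highest teeth of 3059.7 and 3628, 2881 and 3748, and 1337 and 4320.2. From E13 to E16 its log2 fold change was -0.01 ± 0.16 (SE, adjusted p = 0.954, edgeR), or 0.14 ± 0.09 without the left tooth of embryo 3 (adjusted p = 0.201). Pkm (ENSMUSG00000032294, pyruvate kinase of the muscle type, with the splice forms M1 and M2 counted together) had medians of 11391.5, 12846 and 13252 normalized counts, and ranges of 9909 to 12325, 11368 to 14469 and 5099 to 16595. Its log2 fold change from E13 to E16 was 0.17 ± 0.15 (adjusted p = 0.391). Without the left tooth of embryo 3, all other E16 teeth were above all E13 teeth, and Pkm rose by 0.32 ± 0.07 (adjusted p = 0.000225). Of the 84-base windows 22.0% for Eno1 and 15.4% for Pkm are shared with other genes, of which Eno1b had a mean of 58.4 normalized counts and Gm49759, whose exons overlap with those of Pkm on the same strand, 702.

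Ldha (ENSMUSG00000063229) encodes the lactate dehydrogenase subunit that favours the formation of lactate. Its lowest, median and highest levels were 5476, 6013 and 6625 normalized counts at E13, 8189.9, 8641 and 10179 at E14, and 4941, 8747 and 10959 at E16. All E14 teeth were above all E13 teeth, and the E16 teeth spread around those of E14 without a common direction. Ldha rose by 0.57 ± 0.12 (SE, log2 fold change; 1.49-fold) from E13 to E14 (adjusted p = 0.000816, edgeR) and did not pass the test from E14 to E16 (-0.01 ± 0.12, adjusted p = 0.955). Over the whole interval it rose by 0.56 ± 0.12 (adjusted p = 0.000334). The values without the left tooth of embryo 3 were 0.57, 0.11 and 0.68 (edgeR, adjusted p = 1.36e-07, 0.258 and 2.63e-09), with the same calls.

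Counted together, 2 of the 10 genes rose from E13 to E14 (Pfkp and Ldha), where 11.2% of all genes tested were called higher, and 1 fell (Slc2a3), where 8.40% were called lower. From E14 to E16, 4 of the 10 were called, 3 that rose (Slc2a1, Hk2 and Pfkp) and 1 that fell (Slc2a3), where 28.1% of all genes were called in either direction. From E13 to E16, 6 rose (Slc2a1, Hk2, Pfkp, Aldoa, Pgk1 and Ldha), against 21.6% of all genes, and 1 fell (Slc2a3), against 19.6%. The median log2 fold change of the 10 genes was 0.24, 0.24 and 0.49 in these comparisons, and that of all genes -0.01, 0.00368 and -0.01.

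All 21 teeth share the estimates of spread in this fit, so that 1 tooth at E16 bears also on the comparison of E13 and E14. Without the left tooth of embryo 3, 7 of the 10 genes were called from E13 to E14, where 30.1% of all genes were called in either direction, and 6 of them rose (Slc2a1, Hk2, Pfkp, Aldoa, Pkm and Ldha). From E14 to E16, 6 were called, against 34.3% of all genes, and 5 of them rose (Slc2a1, Hk1, Hk2, Pfkp and Aldoa). From E13 to E16, 9 were called, against 48.4% of all genes, and 8 of them rose (all but Slc2a3 and Eno1). With the E13 and E14 teeth fitted alone, 8 were called, against 31.1% of all genes, and the 7 that rose were the same 6 and Pgk1. In each of these fits Slc2a3 was the only member that fell.

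**Figure D2:**
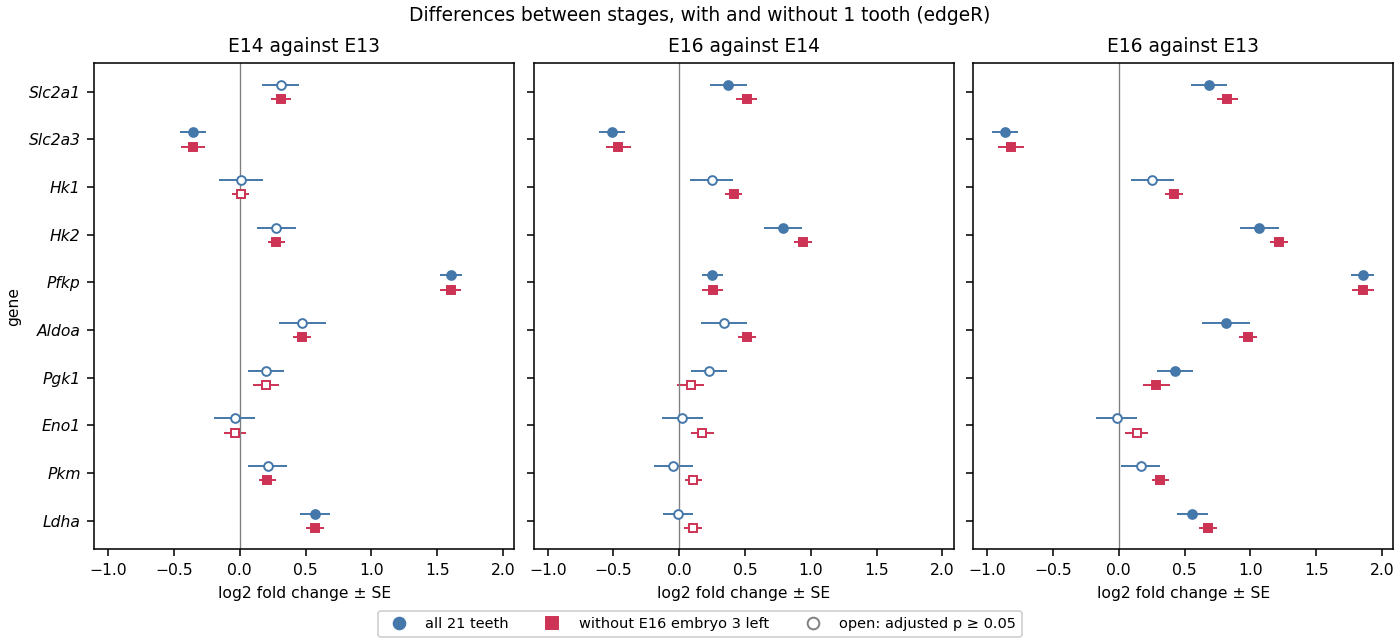
Log2 fold changes ± SE of the 10 genes between stages (x axis) from the edgeR fit of all 21 teeth (blue circles) and without the left tooth of embryo 3 at E16 (red squares); open symbols did not pass an adjusted p of 0.05. Pfkp lies farthest to the right at E14 against E13 (1.60), Slc2a3 lies left of 0 in all panels, and the SE of most genes shrinks without the tooth.

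The levels of markers of several cell types also differed between the stages. Of 10 epithelium markers (such as Krt5, Krt14, Epcam and Trp63), 9 were called higher and 1 lower at E14, where 19.6% of all genes were called in either direction, and 8 were called higher at E16 against E14, where 28.1% were, and their summed level ranged from 17074 to 25516 normalized counts at E13, from 29809.5 to 39191 at E14 and from 50466 to 77171 at E16. Of 10 mesenchyme markers, 2 were called higher and 2 lower at E14, and 2 higher and 5 lower at E16 against E14, with sums of 114079 to 125245, 105512 to 119805 and 52738 to 120047 normalized counts. None of the markers of either list was at 0 in any tooth. Of 8 macrophage markers, 6 were called higher at E14 and 5 at E16 against E14, with sums of 999 to 1520.4 at E13 and 2046 to 3809 at E16. Of 8 proliferation markers, 7 were called lower at E16 than at E14. The summed level of 10 red cell markers was 5719 to 10624 normalized counts at E13, 2835 to 4439 at E14 and 1006 to 2797 at E16, and that of 6 cartilage markers 3676 to 4375, 1708 to 3111 and 1034 to 1502. Other teeth than the left tooth of embryo 3 also had unusual sums. For 10 skeletal muscle markers the highest E13 sum was 28889, against a median of 936 at that stage. For 7 osteoblast markers the highest E14 sum was 20347, against a median of 5032. Of 6 neuron markers, 1 was called higher and 2 lower at E14 and 2 higher and 3 lower at E16 against E14, with overlapping sums at all stages (medians of 731, 629 and 631). Among these, the neurofilament genes Nefl and Nefm fell from medians of 256 and 181 at E13 to 108 and 63.3 at E14 and 8.56 and 21.9 at E16. Elavl4 fell from 64.1 at E13 to 20.7 at E16. Tubb3, Stmn2 and Snap25 went the other way, with higher medians at E16 (281, 130 and 177) than at E13 (97.5, 56.8 and 43.9). The epithelium counts without the left tooth of embryo 3 were the same. In that fit 7 and 8 of the 8 macrophage markers were called higher at the first and second step. The shares of all genes called in either direction were then 30.1% and 34.3%. The part of these changes in the levels of the glycolysis genes was not tested.

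After division by exon length, the 10 genes spanned a wide range. At E13 the order of the mean levels was Pkm (2241 ± 186 normalized counts per kb, SD, n = 7), Ldha (1804 ± 117), Aldoa (1348 ± 112), Slc2a1 (639 ± 58.0), Eno1 (621 ± 50.3), Pgk1 (480.4 ± 58.5), Hk2 (196 ± 17.7), Hk1 (118 ± 5.46), Slc2a3 (65.6 ± 5.39) and Pfkp (16.7 ± 1.12). Each gene was above the next in all 7 teeth, except Slc2a1 and Eno1, of which Slc2a1 was higher in 4 of 7. At E14 Ldha (2685 ± 215) and Pkm (2598 ± 220.4) could not be ordered, with Ldha higher in 4 of 7 teeth, and neither could Slc2a3 (51.4 ± 8.10) and Pfkp (50.7 ± 5.02), with Slc2a3 higher in 3 of 7. Pfkp had thus reached the level of Slc2a3 by the cap stage, and at E16 it was above it in all 7 teeth, at 60.5 ± 6.08 against 36.2 ± 3.10. Eno1 was above Pgk1 in 5 of 7 teeth at E14. At E16 the order differed between teeth for Ldha and Pkm (Ldha higher in 4 of 7), Pkm and Aldoa (Pkm higher in 5), Slc2a1 and Pgk1 (Slc2a1 higher in 6), Pgk1 and Eno1 (Pgk1 higher in 1, although its mean was higher) and Hk1 and Pfkp (Hk1 higher in 6). Hk2 was above Hk1 in all teeth at all stages. The exon lengths cover all annotated transcripts of a gene, 13.4 kb for Pfkp, so that a level per kb understates a gene whose main transcript is shorter.

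Ratios of related genes within a tooth do not depend on the scaling of the libraries. They were compared for 6 pairs at E14 against E13 and at E16 against E14 by two-sided exact permutation, which enumerated the 3432 ways to divide 14 teeth into groups of 7, with Benjamini-Hochberg adjustment over the 12 comparisons; the smallest p the test can give is 0.000583. Each tooth was a unit of this test too, although some teeth at E14 and E16 came from the same embryo, so that its p-values may also be too small. The ratio of Slc2a3 to Slc2a1, per kb, was 0.0959 to 0.111 at E13, 0.0495 to 0.0934 at E14 and 0.0282 to 0.0659 at E16. It was lower in all 7 E14 teeth than in any E13 tooth, and fell by 0.68 on the log2 scale (exact permutation, adjusted p = 0.00175) and then by 0.82 (adjusted p = 0.00524), or by 0.96 without the left tooth of embryo 3 (adjusted p = 0.0014). The ratio of Hk2 to Hk1 was 1.51 to 1.93 at E13, 1.83 to 2.32 at E14 and 2.495 to 3.53 at E16, where it was above every E14 tooth in all 7, the left tooth of embryo 3 included. It rose by 0.27 (exact permutation, adjusted p = 0.00466) and by 0.57 (adjusted p = 0.00175) on the log2 scale, the second step being 0.53 without that tooth (adjusted p = 0.0014).

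The ratio of Ldha to Ldhb, the subunit that favours the use of lactate, was highest at E14 in the HTSeq counts. It was 2.47 to 3.31 at E13, 4.94 to 8.17 at E14 and 3.21 to 5.45 at E16, and its log2 value rose by 1.01 at E14, in 7 of 7 teeth above all E13 teeth (exact permutation, adjusted p = 0.00175), and fell by 0.51 at E16, with 5 of 7 teeth below all E14 teeth (adjusted p = 0.00499), or by 0.49 without the left tooth of embryo 3 (adjusted p = 0.00612). This ratio rests on the HTSeq counts alone, since the salmon table holds no E14 teeth and differs for Ldhb in the teeth that both tables hold. The mean of Ldhb was 966 at E13 and 1004 at E16 in the HTSeq counts, and 108 ± 46.6 and 41.3 ± 44.1 (SD, n = 7 each) in the salmon table. Its log2 fold change from E13 to E16 was 0.05 ± 0.12 in the first (SE, adjusted p = 0.78, edgeR) and -1.39 ± 0.68 in the second (adjusted p = 0.115), and the cause of the difference was not tested. Of the 84-base windows of Ldhb 10.3% are shared with Gm5514. The ratio of Pfkp to Pfkl was 0.0397 to 0.0606 at E13 and 0.1295 to 0.174 at E14, a rise of 1.66 on the log2 scale (exact permutation, adjusted p = 0.00175). At E16 it was 0.111 to 0.439, with no difference past the threshold to E14 (0.0046 on the log2 scale, exact permutation, adjusted p = 0.999). The highest value belongs to the left tooth of embryo 3, and without it the ratio fell by 0.25 (exact permutation over 1716 splits, adjusted p = 0.0451).

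The ratio of Aldoa to Aldoc, the brain type of aldolase, was 38.2 to 76.1 at E13 and 53.1 to 102 at E14 (log2 difference of 0.27, exact permutation, adjusted p = 0.223), and fell by 0.81 on the log2 scale to 24.6 to 54.4 at E16 (exact permutation, adjusted p = 0.0042), or by 0.70 without the left tooth of embryo 3 (adjusted p = 0.00499). The ratio of Eno1 to Eno2, the neuronal type of enolase, had medians of 15.3, 18.3 and 16.52 at the stages and overlapped between them (exact permutation, adjusted p = 0.594 and 0.545), with a second difference of -0.02 without that tooth (adjusted p = 0.905). Of the partners, Aldoc, with means of 82.1, 93.3 and 196 normalized counts, rose by 1.07 ± 0.21 (SE, log2 fold change) from E14 to E16 (adjusted p = 0.000426, edgeR), and Ldhb, with means of 966, 721 and 1004 in this table, fell by 0.42 ± 0.12 (adjusted p = 0.0143) and then rose by 0.47 ± 0.12 (adjusted p = 0.00418).

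**Figure D3:**
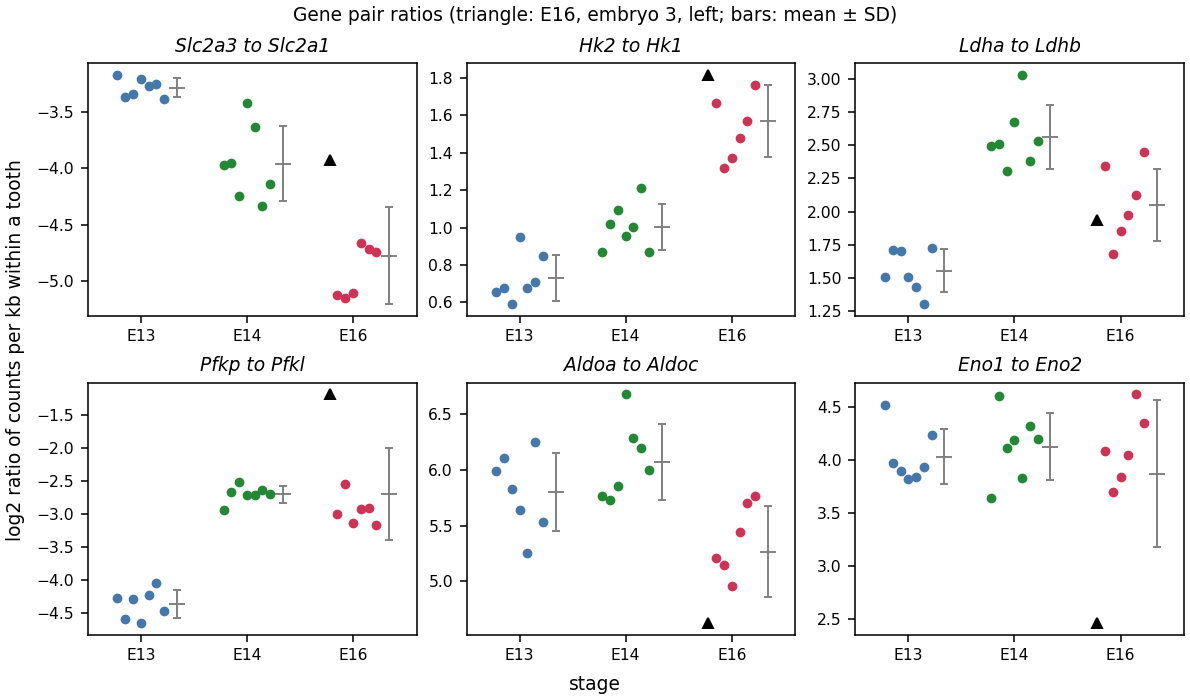
Log2 ratios of the counts per kb of 6 gene pairs within each tooth at E13, E14 and E16, with the mean ± SD to the right; the black triangle is the left tooth of embryo 3 at E16. The Slc2a3 to Slc2a1 ratio falls and the Hk2 to Hk1 ratio rises at each step, the Ldha to Ldhb ratio is highest at E14, and the triangle is apart from the other E16 teeth for Slc2a3 to Slc2a1, Pfkp to Pfkl and Eno1 to Eno2.

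The E15 teeth fall between the cap and bell stages and were compared in the table of estimated counts by salmon, which lists 7 of the 10 genes (not Slc2a3, Pgk1 and Eno1). From E13 to E15, 5 of the 7 rose, where 18.3% of all genes tested in this table were called higher: Pfkp by 1.69 ± 0.11 (SE, log2 fold change), Hk2 by 0.81 ± 0.16, Slc2a1 by 0.69 ± 0.14, Ldha by 0.51 ± 0.12 and Aldoa by 0.48 ± 0.18 (edgeR, adjusted p = 5.76e-11, 0.000392, 0.000615, 0.00193 and 0.0475). In all 5, the E15 teeth were all above the E13 teeth. Slc2a1 had 1830.2 to 2278 normalized estimated counts at E13 and 2912 to 3499 at E15, Hk2 976 to 1261 and 1561 to 2261, and Pfkp 187.5 to 231 and 517 to 767. The Aldoa call was near the threshold and was lost with the teeth of an embryo summed (adjusted p = 0.0586) and with DESeq2 (adjusted p = 0.0534). Hk1 (0.11 ± 0.17, adjusted p = 0.681) and Pkm (0.13 ± 0.15, adjusted p = 0.565) did not pass the test.

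From E15 to E16 none of the 7 genes was called by edgeR or by DESeq2, and 1 (Pfkp) had an unadjusted edgeR p below 0.05, where 6.33% of all genes were called in either direction. The log2 fold changes lay between 0.03 (Pkm) and 0.36 (Aldoa), with SEs of 0.11 to 0.18. Without the left tooth of embryo 3 at E16, Aldoa (0.51 ± 0.08), Hk2 (0.40 ± 0.09) and Hk1 (0.30 ± 0.08) were called higher (edgeR, adjusted p = 0.000171, 0.00486 and 0.0155), against 6.01% of all genes, while Slc2a1 (0.17 ± 0.08) and Pfkp (0.18 ± 0.10) were not (adjusted p = 0.222 and 0.28). From E13 to E16 this table called the same 5 genes as higher as from E13 to E15, against 21.7% of all genes, with Pfkp at 1.91 and Hk2 at 1.08, and all 7 without that tooth, against 23.8%.

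**Figure D4:**
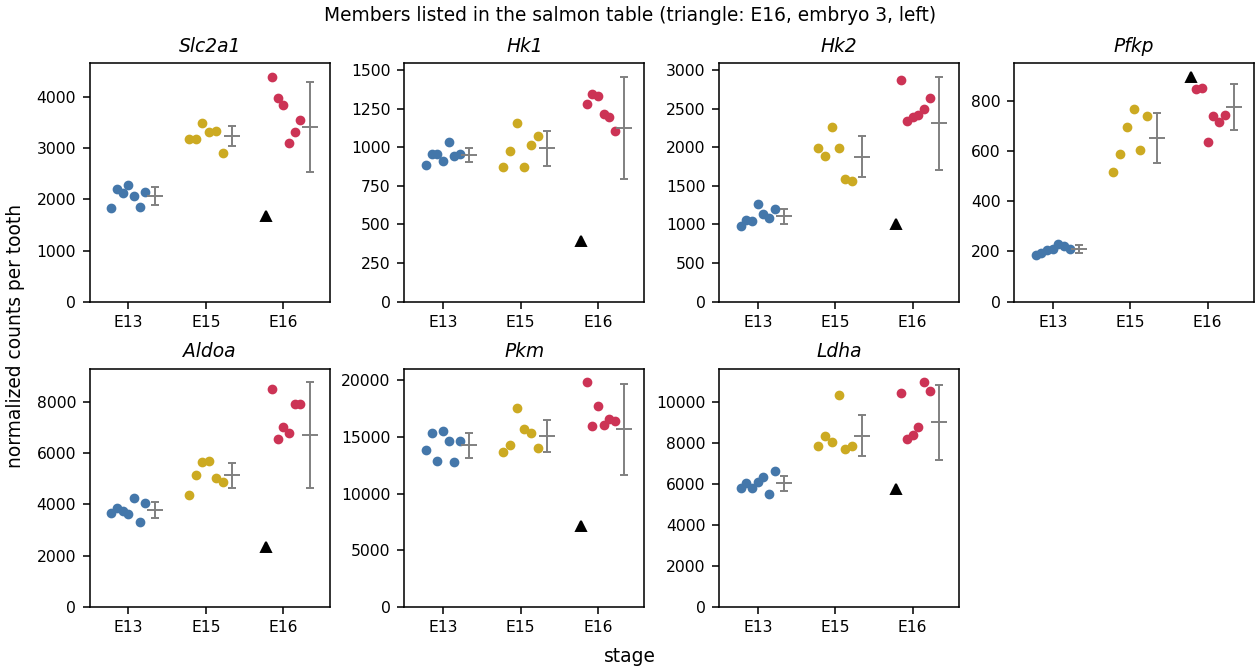
Normalized estimated counts by salmon (linear axis from 0) of the 7 members in this table at E13 (7 teeth), E15 (6) and E16 (7), with the mean ± SD to the right; the black triangle is the left tooth of embryo 3 at E16. Slc2a1, Hk2, Pfkp, Aldoa and Ldha are higher in all E15 teeth than in any E13 tooth, and 1 E15 tooth has 10370.4 for Ldha.

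The steps between those of the 10 genes were taken from the other enzymes of the pathway. Gapdh, the first oxidation step, had means of 7117, 9712 and 10212 normalized counts at E13, E14 and E16, and passed the test from E13 to E16 (0.51 ± 0.18, SE, log2 fold change, adjusted p = 0.0284, edgeR) and, without the left tooth of embryo 3, also from E13 to E14 (0.45 ± 0.11, adjusted p = 0.00578). It shares windows with 105 other genes. Gpi1, which isomerizes glucose 6-phosphate, passed over the whole interval (0.46 ± 0.15, adjusted p = 0.0185) and, without that tooth, at both steps (0.30 ± 0.06 and 0.32 ± 0.06, adjusted p = 0.000322 and 0.000114). Tpi1, which interconverts the 3-carbon units, rose from E14 to E16 (0.26 ± 0.09, adjusted p = 0.0258). Pgam1, phosphoglycerate mutase, rose from E13 to E14 (0.72 ± 0.24, adjusted p = 0.0358), and 34.4% of its windows are shared with other genes. Of the 15 tested among 21 other glycolysis enzymes and isoforms, 1 was called higher and 2 lower from E13 to E14, where 19.6% of all genes were called in either direction, and 4 higher from E14 to E16, where 28.1% were. Leaving out the left tooth of embryo 3, these became 3 higher and 2 lower (against 30.1% of all genes) and 7 higher (against 34.3%). Pfkm, the muscle type, was lower at E14 (-0.37 ± 0.11, adjusted p = 0.0184), and Pfkl did not pass the test at either step (-0.07 ± 0.18 and 0.34 ± 0.18, adjusted p = 0.825 and 0.167) but rose from E14 to E16 without that tooth (0.51 ± 0.09, adjusted p = 0.000152).

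Among 11 other glucose transporters, of which 8 were tested, 2 were called lower from E13 to E14 (19.6% of all genes in either direction), and 1 higher and 2 lower from E14 to E16 (28.1%). When the left tooth of embryo 3 was left out, 2 were higher at the second step, where 34.3% of all genes were called in either direction. Slc2a4 (GLUT4, the insulin-responsive transporter) fell by 0.44 ± 0.09 (SE, log2 scale) at the first step and by 0.45 ± 0.10 at the second (edgeR, adjusted p = 0.00156 and 0.000764). Slc2a13, a myo-inositol transporter of the same family, fell by 1.13 ± 0.08 from E14 to E16 (adjusted p = 2.59e-11), and Slc2a8 fell by 0.51 ± 0.14 from E13 to E14 (adjusted p = 0.0126). Of 4 genes of lactate transport tested, 2 were higher at the first step, and 1 was higher and 1 lower at the second (19.6% and 28.1% of all genes). Without that tooth 3 were higher at the first step (30.1% of all genes in either direction), and 2 higher and 1 lower at the second (34.3%). The values that follow are from all teeth. Slc16a7 (MCT2) rose by 0.65 ± 0.12 and then by 1.20 ± 0.12 (adjusted p = 0.000262 and 1.28e-08), from a mean of 234 normalized counts at E13 to 846 at E16. Slc16a1 (MCT1) rose by 0.37 ± 0.09 and then fell by 0.49 ± 0.09 (adjusted p = 0.00548 and 0.000169).

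Flux through the pathway is set by regulators of uptake and by the fate of pyruvate. Of 7 regulators of flux, 1 was lower from E13 to E14 (2 without the left tooth of embryo 3, against 30.1% of all genes) and 2 higher from E14 to E16, beside 19.6% and 28.1% of all genes called in either direction with all teeth. Txnip, a protein known to restrain glucose uptake, rose by 0.98 ± 0.14 (SE, log2 fold change, adjusted p = 4.14e-06, edgeR), and the related Arrdc4 fell by 0.33 ± 0.11 and then rose by 0.70 ± 0.11 (adjusted p = 0.0404 and 3.61e-05). Of 12 genes of pyruvate entry into mitochondria, 2 were higher at the first step, and 1 was higher and 1 lower at the second, beside the same 19.6% and 28.1% of all genes. Without that tooth 4 were higher at the first step and 2 lower at the second, against 30.1% and 34.3% of all genes in either direction. In that fit Pdp1 fell by 0.28 ± 0.09 at the second step (adjusted p = 0.0168, edgeR). Pdk1, a kinase that inhibits pyruvate dehydrogenase, rose by 0.62 ± 0.07 from E14 to E16 (adjusted p = 4.33e-07), and Pdk3 fell by 0.26 ± 0.08 (adjusted p = 0.0178). Pdk4 and the phosphatase Pdp1, which acts in the opposite direction, rose from E13 to E14 (0.73 ± 0.23 and 0.60 ± 0.10, adjusted p = 0.0286 and 0.000128).

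Of 7 genes of the pentose phosphate pathway, 1 was called from E14 to E16, where 28.1% of all genes were called in either direction, Rpia, which fell by 0.54 ± 0.10 (SE, log2 scale, adjusted p = 0.000191, edgeR). Of 15 genes of gluconeogenesis and glycogen, 11 were tested, of which 2 were called at the first step, where 19.6% of all genes were. Without the left tooth of embryo 3, 3 were lower and 1 higher at this step, against 30.1% of all genes. With all teeth Pcx (pyruvate carboxylase) fell by 0.81 ± 0.13 and Pck2 fell by 0.31 ± 0.11 (adjusted p = 3.81e-05 and 0.0484, edgeR). At the second step Pygl (a glycogen phosphorylase) rose by 0.84 ± 0.12 and Ugp2 fell by 0.38 ± 0.09 (adjusted p = 5.56e-06 and 0.00343).

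Hif1a, the oxygen-regulated HIF subunit, had means of 5004, 5455 and 5782 normalized counts and passed the test from E13 to E16 (0.20 ± 0.07, SE, log2 fold change, adjusted p = 0.0145, edgeR). Of 14 HIF and Myc factors, 3 fell from E13 to E14 (Mlxipl, Vhl and Hif1an), where 19.6% of all genes were called in either direction, with Vhl, which marks HIF for degradation, at -0.37 ± 0.09 (adjusted p = 0.00383), Mlxipl at -0.76 ± 0.23 (adjusted p = 0.0201) and Hif1an at -0.31 ± 0.09 (adjusted p = 0.0176). From E14 to E16, Epas1 (HIF-2α, 0.72 ± 0.21) and Egln3 (0.54 ± 0.12) rose, and Vhl (-0.27 ± 0.09) and Mycn (-0.75 ± 0.16) fell (adjusted p = 0.0129, 0.00105, 0.0236 and 0.000708). With the left tooth of embryo 3 at E16 left out, 5 factors also rose from E13 to E14, where 30.1% of all genes were called in either direction. Among them were Epas1 (0.47 ± 0.07) and Mycn (0.35 ± 0.11; edgeR, adjusted p = 3.39e-06 and 0.0145). From E14 to E16, 4 rose in that fit, where 34.3% of all genes were called. Of 15 HIF targets outside glycolysis, with all teeth 3 were higher and 1 lower at E14 (19.6% of all genes in either direction). From E14 to E16, 5 were higher (28.1%). Without that tooth 4 were higher and 2 lower at E14 (30.1% of all genes in either direction), and 9 higher from E14 to E16 (34.3%). The values that follow are from all teeth. Ndrg1 rose by 1.00 ± 0.13 and then by 1.34 ± 0.13 (adjusted p = 4.47e-06 and 1.38e-08), Fam162a by 0.47 ± 0.10 and 0.65 ± 0.10 (adjusted p = 0.00193 and 2.52e-05), and Bnip3 by 0.91 ± 0.11 at the second step (adjusted p = 6.33e-07). Ankrd37 fell by 0.91 ± 0.18 and then rose by 1.28 ± 0.18 (adjusted p = 0.000642 and 4.13e-06).

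**Figure D5:**
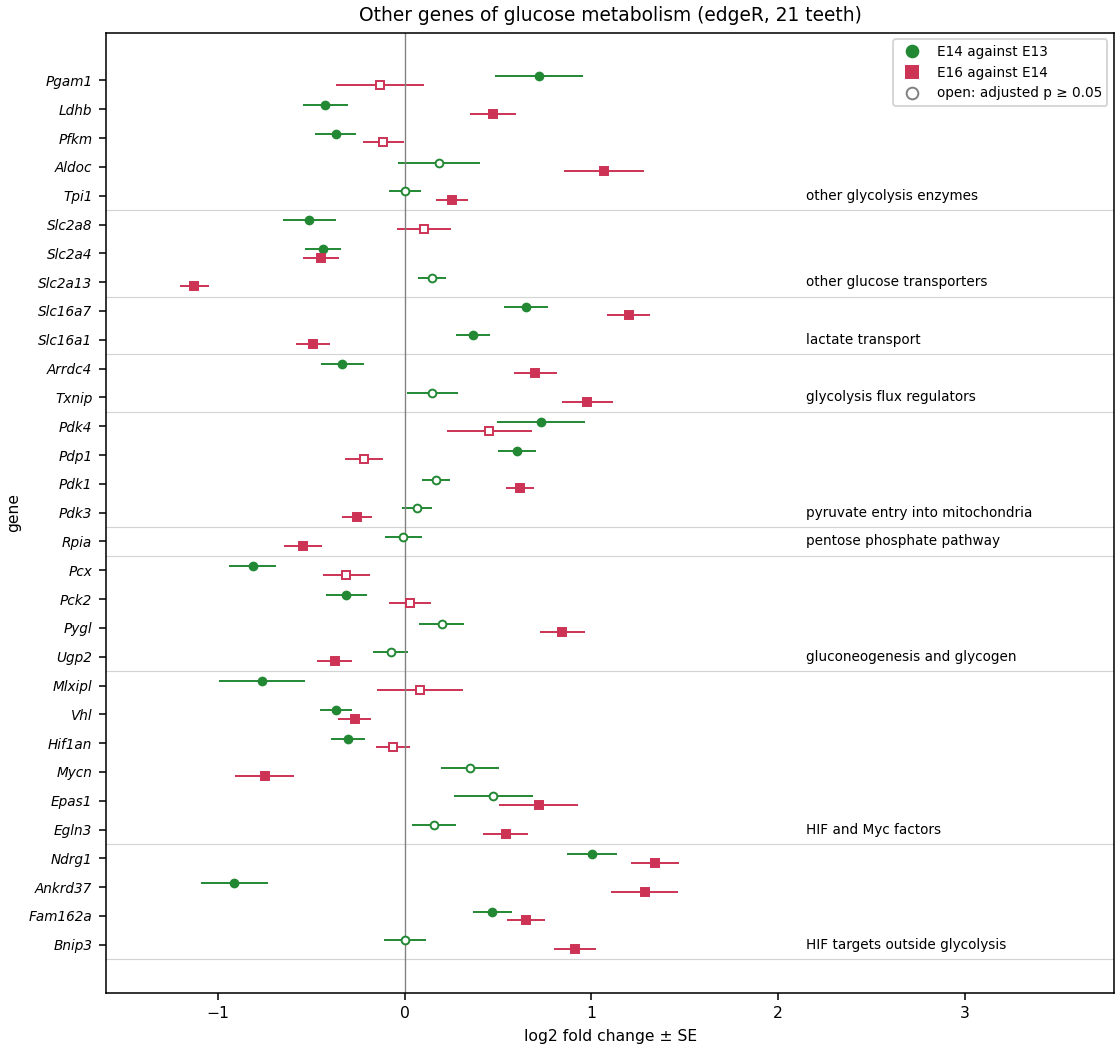
Log2 fold changes ± SE (x axis) of the other genes of glucose metabolism, grouped by list, from E13 to E14 (green circles) and from E14 to E16 (red squares); open symbols did not pass an adjusted p of 0.05. Slc16a7 and Ndrg1 rise at both steps, Slc2a4 and Vhl fall at both, and Slc16a1, Ldhb, Arrdc4 and Ankrd37 turn.

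The genes whose pattern over the 21 teeth was most like that of a member were found by the root mean square difference of z-scored log2 CPM. For Pfkp they included Tspear (0.175) and Prdm1 (0.198), and for Hk2 they were Cgnl1 (0.226), Cdh1 (0.266) and Frem2 (0.278), where Cdh1 is among the epithelium markers counted above. For Slc2a1 they included Wbp2 (0.296) and Trp53i11 (0.326), for Slc2a3 they were Baz1b (0.276), Igf2bp3 (0.301) and Rbfox2 (0.308), and for Ldha they were Srd5a1 (0.358), Nell2 (0.363) and Capn5 (0.370). Aldoa was closest to Cux1 (0.185), Ets2 (0.274) and Srd5a1 (0.279), Pkm to Hmga1 (0.210), Scap (0.249) and Pigt (0.271), and the genes close to Hk1 included Capn2 (0.326) and C1qtnf6 (0.341). Eno1 was closest to Zfp646 (0.327), Lmtk2 (0.332) and Upf1 (0.337). Pgk1 had no gene as near as those of the other members, with Tmf1 at 0.559, Tfrc at 0.565 and Sat1 at 0.601. These differences include the left tooth of embryo 3 at E16, which most of the members share as their lowest value.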

How the data were processed

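RNA of single tooth germs was sequenced. For E13, E14 and E16 the authors trimmed the reads, aligned them with STAR to GRCm38 and counted them per gene with HTSeq, and the deposited values are raw counts for 52636 genes in 21 libraries. For E13, E15 and E16 the authors deposited estimated counts per gene by salmon (Salmon 0.99.0 per the submitters' notes) for 14185 genes in 20 libraries, which were rounded to whole numbers here. Another E15 tooth was not analysed here. The strand setting and the treatment of reads with several positions are not given in the sources used here.

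Counts were normalized by TMM, filtered by filterByExpr and fitted over all stages of a table with the quasi-likelihood test of edgeR 4.0.16 in R 4.3.3, with Benjamini-Hochberg adjustment over all genes and a threshold of 0.05. The SE is the log2 fold change divided by the square root of F. Levels were counts divided by size factors of DESeq2 1.42.0, which also served as an alternative test. Labels do not say that the embryos of a stage came from separate litters. On simulated counts of 18820 genes the fit recovered 144 of 199 changed genes for E14 against E13, with 12 false calls, and 152 of 199 for E16 against E14, with 8.

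The genes and lists were chosen with earlier results of these data known. Of each pathway list the 3 genes with the largest called change and a mean of at least 50 normalized counts were named for E14 against E13 and E16 against E14, beside the 10 genes, the remaining glycolytic steps, Hif1a and the partners in the ratios. Some genes named for E13 against E16 or as markers were chosen after their values were seen. Alternatives were other normalizations and filters, DESeq2, the 2 stages alone, side as a factor, teeth summed per embryo, and each tooth left out. Those for E16 against E13 in the salmon table, and its upper quartile normalization, were chosen after seeing the data. Some genes that this rule names are not reported here.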

Additional observations from a re-analysis of the deposited data

Results flagged for a closer look

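In 69 groups of 6 or 7 teeth, the gap of the lowest or highest tooth to its nearest neighbour was divided by the range of the group (Dixon's ratio). Chance alone flags about 1 in 20 groups. At E16 the left tooth of embryo 3 was the lowest and lay apart for Hk1 (0.749), Hk2 (0.736), Aldoa (0.707) and Pkm (0.659) in the HTSeq counts, and for Hk1 (0.746), Hk2 (0.716), Aldoa (0.685) and Pkm (0.697) in the salmon table, which holds the same tooth and is not independent. It was also apart in the ratios of Slc2a3 to Slc2a1 (0.605, highest), Pfkp to Pfkl (0.685, highest) and Eno1 to Eno2 (0.574, lowest). Of the E15 teeth, the left tooth of embryo 5 was the highest for Ldha, at 10370.4 normalized estimated counts (0.769).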

How the results depend on the processing

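No paired analysis was possible because the teeth of different stages come from different embryos, whose numbers are only names. With the E13 and E14 teeth fitted alone, 5632 genes and 7 of the 10 members rising were called, against 3736 and 2 in the fit of all stages. From E14 to E16, 1 member rose with any-count filtering and 1 with the 2 stages alone, against 3. In the salmon table, which does not list Slc2a3, 0 members fell from E13 to E16, against 1. Several values near 0 changed sign. From E13 to E14 they were Hk1 (-0.025), Tpi1 (-0.031) and Bnip3 (-0.034) with upper quartile normalization, Tpi1 (-0.0035) and Bnip3 (-0.0075) with any-count filtering, Hk1 (-0.010) with side as a factor, and Tpi1 (-0.0037) and Bnip3 (-0.018) with teeth summed per embryo. They were also Ldha from E14 to E16 (0.012, upper quartile), Pck2 from E14 to E16 (-0.017) and Pkm from E15 to E16 (-0.011), both with teeth summed. Apart from the fits with fewer teeth or other genes, the cause was not tested.

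With each tooth left out in turn, the values from E13 to E14 ranged from -0.027 to 0.050 for Bnip3, from -0.028 to 0.042 for Hk1, from -0.054 to 0.045 for Rpia and from -0.037 to 0.062 for Tpi1, with 3045 to 5795 genes called and 2 to 6 members rising. From E14 to E16 they ranged from -0.039 to 0.175 for Eno1, from -0.112 to 0.0069 for Hif1an, from -0.054 to 0.106 for Ldha, from -0.049 to 0.213 for Mlxipl, from -0.205 to 0.064 for Pgam1, from -0.108 to 0.107 for Pkm and from -0.247 to 0.083 for the log2 ratio of Pfkp to Pfkl, with 2 to 5 members rising. From E13 to E16 they ranged from -0.077 to 0.136 for Eno1 and from -0.0054 to 0.149 for Eno2. From E15 to E16 they ranged from -0.033 to 0.153 for Pkm and from -0.018 to 0.166 for Slc2a1, with 677 to 1391 genes called and 0 to 3 members rising.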
